A study of Arabidopsis thaliana with 8 samples.

Results

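The genes described here are 10 Arabidopsis thaliana loci known for their work in the ovule and the seed coat, STK, TT16, TT2, TT8, TTG2, BAN, TT12, AHA10, TT10 and MUM2, out of 32833 loci in the count tables. They were chosen by locus, with earlier results of these data known, among them that seed genes were lower in msh1 Total than in WT Total. Differences that involve Total libraries are therefore given as a description with no test. It is not known whether TRAP values also played a part in the choice. Even if they did not, TRAP compares the same genotypes, and the fit behind its p-values also used the Total libraries. The p-values given below for TRAP can therefore not be taken as independent of the choice. The tissue was the floral stem of accession Col-0, grown under long days on peat mix. The 4 groups of 2 libraries were msh1 TRAP, WT TRAP, msh1 Total and WT Total, where msh1 is the genotype as labelled, with no allele stated, and WT is wild type. Total libraries hold RNA of the stem as a whole. In TRAP (translating ribosome affinity purification), mRNAs are recovered together with ribosomes that carry a tagged subunit protein. Here this was FLAG::RPL18, driven by the promoter of MSH1, whose product is a MutS-like protein of the organelles, so TRAP libraries are meant to hold RNA from cells that use this promoter. The labels call the replicates biological and give neither the age of the plants nor whether TRAP and Total RNA came from the same plants.

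As background, the seed coat of Arabidopsis grows from the integuments of the ovule. Its innermost layer, the endothelium, makes proanthocyanidins, the flavonoid polymers that turn brown as the seed ripens, and a complex of the MYB protein TT2, the bHLH protein TT8 and the WD40 protein TTG1 switches on the last steps of that pathway. Its outermost layer makes pectin-rich mucilage. These layers belong to the fruit and not to the stem axis.

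Because the TT2, TT8 and TTG1 complex is known to act at promoters through E-boxes and AC-rich elements, the window from 250 bases before to 50 bases after the annotated gene start was searched on both strands for those letters. The E-box was spelled CANNTG, its G-box form CACGTG, which every E-box search also finds, and the AC-rich elements ACCTAA and ACCAAC. BAN, TT2, TT8 and TTG2 were the 4 members that held both an E-box and an AC-rich element, a combination found in 16.5% of 27443 promoter windows of protein-coding genes. The 250 bases before the start are shown for 3 of them, 5′ to 3′ on the strand of the gene, with E-boxes and AC-rich elements in capitals, read from the RefSeq TAIR10.1 genome: chr1:22792804-22793053, minus strand, for BAN, chr4:6181631-6181880, plus strand, for TT8, and chr2:15644561-15644810, plus strand, for TTG2.
BAN: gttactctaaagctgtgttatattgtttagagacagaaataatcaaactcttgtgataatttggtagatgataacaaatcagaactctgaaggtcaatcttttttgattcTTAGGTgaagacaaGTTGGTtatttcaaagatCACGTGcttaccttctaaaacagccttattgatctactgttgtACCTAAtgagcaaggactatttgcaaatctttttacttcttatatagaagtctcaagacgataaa
TT8: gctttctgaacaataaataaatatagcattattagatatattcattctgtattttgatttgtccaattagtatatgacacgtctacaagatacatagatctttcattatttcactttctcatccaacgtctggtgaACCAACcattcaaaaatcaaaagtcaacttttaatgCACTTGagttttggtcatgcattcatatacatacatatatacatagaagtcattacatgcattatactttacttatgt
TTG2: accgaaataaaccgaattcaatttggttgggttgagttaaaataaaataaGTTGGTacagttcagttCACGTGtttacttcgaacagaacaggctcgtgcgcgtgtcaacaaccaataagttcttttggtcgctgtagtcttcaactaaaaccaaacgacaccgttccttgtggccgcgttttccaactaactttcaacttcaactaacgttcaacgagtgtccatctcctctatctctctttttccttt

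In BAN the G-box began 108 bases before the start, with the 3 AC-rich matches at 140, 126 and 65 bases before it. TT8 held its AC-rich match at 114 and its E-box at 78 bases before the start, and TTG2 at 200 and 183. An E-box lay in the windows of 8 of the 10 members, against 61.7% of all windows. The G-box was found in BAN and TTG2, against 7.68% of all windows, and ACCAAC in 4 members, against 13.8%. ACCTAA was found in BAN, against 15.1% of windows. The W-box core TTGAC, to which WRKY proteins such as TTG2 bind, was present in 6 members, against 50.5%, and the CArG box, the element of MADS-box proteins such as STK and TT16, in AHA10, against 3.05%. These are matches of letters and no binding was measured.

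**Figure D1:**
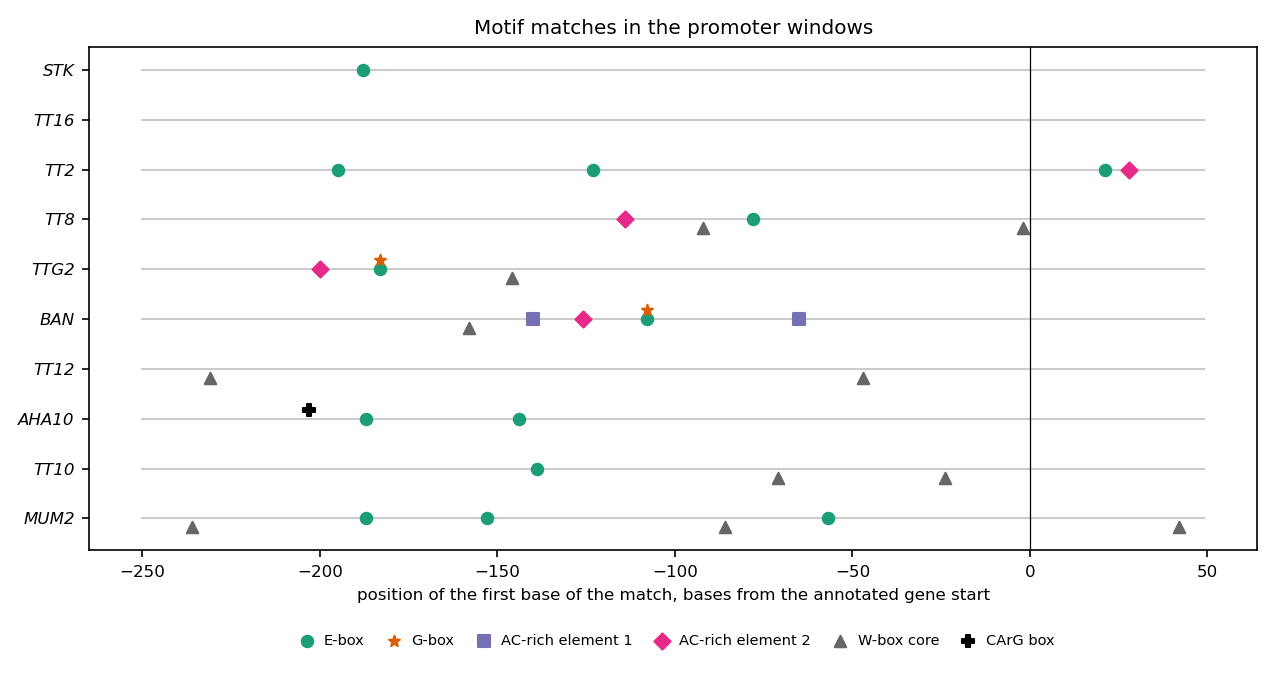
Motif matches in the 10 promoter windows, with the distance in bases from the annotated gene start on the horizontal axis (negative values lie before the start) and 1 line per gene. BAN holds its G-box 108 bases and its AC-rich matches 140, 126 and 65 bases before the start, and TT16 holds no match.

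The libraries held 7568728 to 13611280 counts in genes. Levels are given as CPM, counts scaled to a common library total, with TMM normalisation. The detection floor was taken as 3 counts, which stood for 0.220 to 0.396 CPM before TMM normalisation, a scale slightly apart from that of the levels. Such floors and the intervals below cover counting error only. MSH1 itself stood at 36.3 and 22.5 CPM in msh1 TRAP, against 12.3 and 14 CPM in WT TRAP, and at 27.9 and 30.8 CPM in its Total libraries, against 9.27 and 9.61 CPM in WT Total. It was thus higher under the msh1 label, and with no allele stated this level does not check the label. The 10 stem markers searched, such as the secondary wall gene CESA4 and the phloem gene SUC2, were measured in every library and summed to between 607 and 1907 CPM. Libraries of 1 group differed in the summed level of 18 embryo and seed maturation genes. The sum was 955 CPM in WT TRAP 1 and 2067 CPM in WT TRAP 2. For msh1 Total 1 it was 119 CPM, against 301 CPM for msh1 Total 2. Seed content itself was not measured. Each p-value below comes from edgeR's quasi-likelihood test on all 8 libraries, adjusted over the 21202 genes kept by the filter on low counts, and measures only the spread between the 2 libraries of each group. In bulk RNA, fewer cells of a type and less RNA per cell cannot be told apart.

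In ribosome-bound RNA, 5 of the 9 measured members fell in msh1 relative to WT and none rose. These were the laccase gene TT10, the anthocyanidin reductase gene BAN, the ovule identity gene STK, the pathway regulator gene TT8 and the mucilage gene MUM2, with fold changes that ran from 25.4-fold for TT10 to 1.73-fold for MUM2. The test called 20.8% of all genes lower and likewise 20.8% higher in this comparison, so a call in msh1 TRAP was common. AHA10, TT2, TT12 and TTG2 were not called, and TT16 had too few counts for the test. Over the 9 members the median log2 fold change was −1.78 in TRAP, where that of all genes was −0.02, and −1.76 in Total, where that of all genes was 0.00. The 9 log2 fold changes were all negative in both comparisons, from −4.67 to −0.14 in TRAP and from −3.00 to −0.54 in Total. Both msh1 TRAP libraries lay below both WT TRAP libraries for 7 of the 9, where 34.8% of genes did, and both msh1 Total libraries below both WT Total libraries for 8 of the 9, where 29.4% did. The Total comparison was known when the genes were chosen, and nothing is read from its count. Without WT TRAP 2 TT8 lost its call, but far fewer genes of the whole set were called there too.

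**Figure D2:**
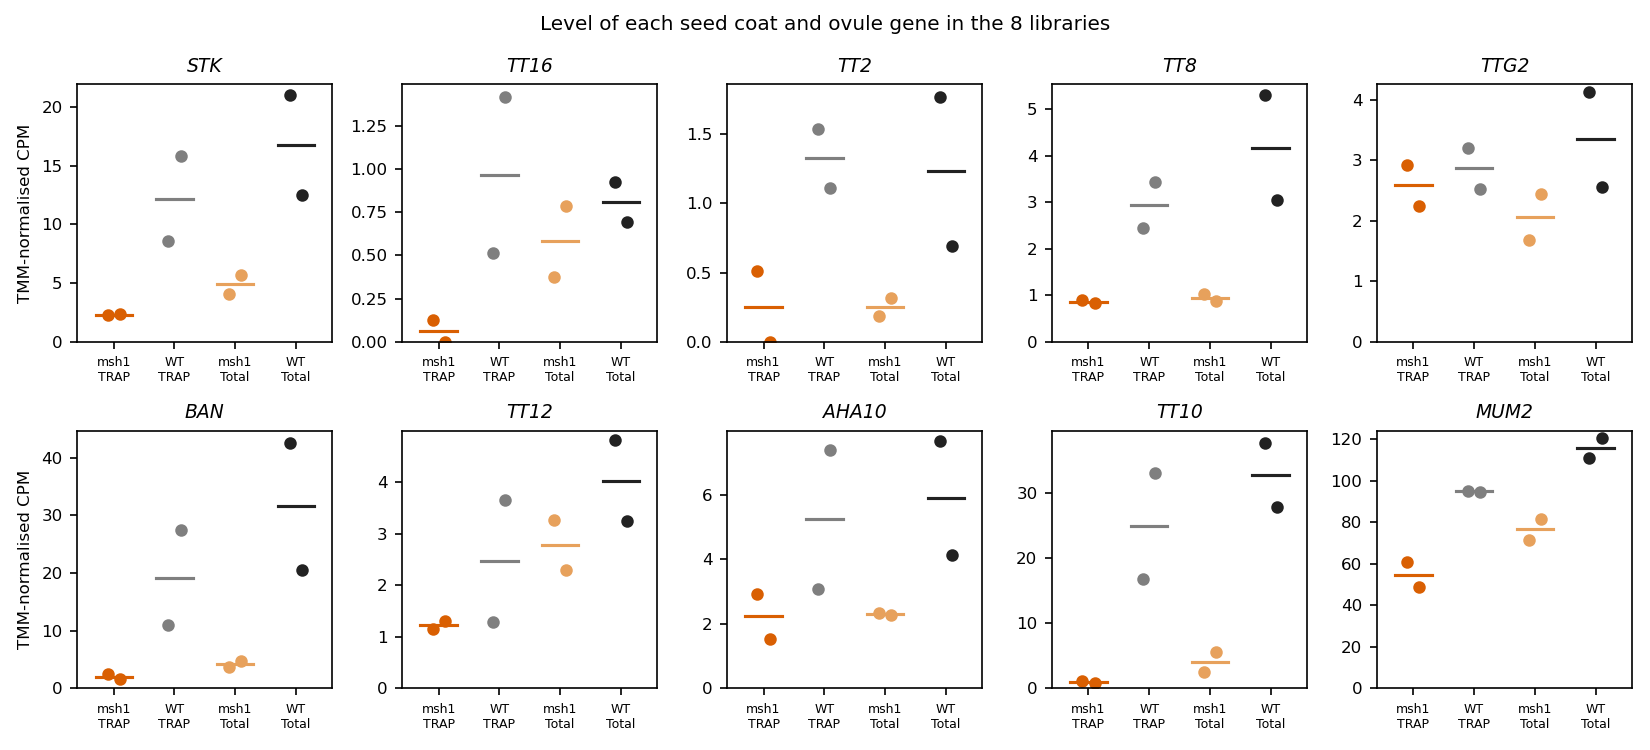
TMM-normalised CPM of each of the 10 genes (vertical axes, a linear scale of its own per gene) in the 8 libraries; points are libraries and lines are the means of 2. TT10, BAN, STK and TT8 lie low in all 4 msh1 libraries, whereas the TTG2 points of msh1 TRAP and WT TRAP overlap.

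STK (AT4G09960, chromosome 4, 6236375 to 6241281, minus strand) encodes a MADS-box factor of ovule identity. It stood at 2.29 and 2.36 CPM in msh1 TRAP, against 8.60 and 15.8 CPM in WT TRAP, and at 4.11 and 5.68 CPM in msh1 Total, against 21.0 and 12.5 CPM in WT Total. The msh1 libraries were below the WT libraries in each fraction with no overlap. In TRAP the log2 fold change was −2.40 ± 0.39 (SE, edgeR adjusted p = 0.000487). The Total libraries gave −1.76 ± 0.32. STK shares 186 exon bases with AT4G09950 on the other strand, which holds 364 counts over all libraries against 807 for STK, and since the preparation does not mark strand the reads of that stretch are uncertain.

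TT16 (AT5G23260, chromosome 5, 7835965 to 7838555, plus strand) encodes a B-sister MADS-box factor needed to specify the endothelium, and was the member that did not pass the filter. It had 1 and 0 counts in msh1 TRAP, against 4 and 14 counts in WT TRAP, and 4 and 10 counts in msh1 Total, against 11 and 10 counts in WT Total. The ratio of the summed counts, scaled by library size, was 0.0601 in msh1 TRAP over WT TRAP, with an exact 95% counting interval of 0.00144 to 0.38. The Total libraries of both genotypes overlapped, and in msh1 TRAP the gene was at or under the floor of 3 counts in each library.

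TT2 (AT5G35550, chromosome 5, 13726743 to 13727961, plus strand), the MYB member of the complex, had 4 and 0 counts in msh1 TRAP, against 12 and 11 counts in WT TRAP, and 2 and 4 counts in msh1 Total, against 21 and 10 counts in WT Total. The groups did not overlap in either fraction, but the counts were low. The TRAP difference was −2.36 ± 0.94 and missed the threshold (edgeR adjusted p = 0.0611), with adjusted p-values from 0.0178 to 0.252 over 15 alternatives. The difference itself moved widely, to −6.85 without msh1 TRAP 1, where the remaining msh1 library has no count and the fitted value is no bound, and to −1.40 without msh1 TRAP 2. In Total the difference was −2.18 ± 0.83, and −1.39 without WT Total 1.

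TT8 (AT4G09820, chromosome 4, 6181881 to 6186523, plus strand), the bHLH member, stood at 0.892 and 0.824 CPM in msh1 TRAP, against 2.44 and 3.44 CPM in WT TRAP, and at 1.03 and 0.868 CPM in msh1 Total, against 5.31 and 3.04 CPM in WT Total. All 4 msh1 values thus lay near 1 CPM or below. In TRAP it fell by 1.78 ± 0.48 on the log2 scale (edgeR adjusted p = 0.0107). With WT TRAP 2 left out the gene was no longer called, at −1.47 (edgeR adjusted p = 0.0912), and over 15 alternatives the adjusted p ran from 0.00188 to 0.0912. In Total the difference was −2.12 ± 0.42.

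TTG2 (AT2G37260, chromosome 2, 15644811 to 15647076, plus strand) encodes a WRKY factor that acts in the seed coat and also in trichomes. It stood at 2.93 and 2.24 CPM in msh1 TRAP, against 3.21 and 2.53 CPM in WT TRAP, and at 1.68 and 2.45 CPM in msh1 Total, against 4.13 and 2.56 CPM in WT Total. The TRAP groups overlapped. The log2 fold change of TTG2 was −0.67 ± 0.37 in Total and −0.14 ± 0.40 (edgeR adjusted p = 0.799) in TRAP, and without WT TRAP 1 the TRAP value was 0.02. Among the measured members TTG2 was the one with the smallest TRAP difference. Its window, as shown above, holds a G-box and an AC-rich match, and whether these bear on its level was not tested.

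BAN (AT1G61720, chromosome 1, 22790966 to 22792803, minus strand) encodes anthocyanidin reductase, the enzyme that turns anthocyanidins into the building blocks of proanthocyanidins. It stood at 2.55 and 1.53 CPM in msh1 TRAP, against 10.9 and 27.5 CPM in WT TRAP, and at 3.73 and 4.65 CPM in msh1 Total, against 42.6 and 20.5 CPM in WT Total. The 4 msh1 values lay below the lowest WT value, and the WT libraries differed more than 2-fold within each fraction. In TRAP it fell 9.54-fold, by 3.25 ± 0.52 on the log2 scale (edgeR adjusted p = 0.000458), and without WT TRAP 2 by 2.40. Among alternatives that dropped no replicate, the edgeR adjusted p ran from 2.5e-29 without the filter to 0.000824 with the replicate block. The value without the filter lay far below the others and is not read as stronger support. In Total the difference was −2.90 ± 0.43, and −2.28 without WT Total 1.

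TT12 (AT3G59030, chromosome 3, 21819040 to 21821440, plus strand) encodes a vacuolar transporter of the MATE type that carries proanthocyanidin precursors. It stood at 1.15 and 1.30 CPM in msh1 TRAP, against 1.28 and 3.65 CPM in WT TRAP, and at 3.27 and 2.29 CPM in msh1 Total, against 4.80 and 3.25 CPM in WT Total. The groups overlapped in both fractions. The TRAP difference was −1.05 ± 0.53 (edgeR adjusted p = 0.133) and rested on WT TRAP 2, without which it was −0.05 (edgeR adjusted p = 0.966, with a range of 0.029 to 0.966 over 15 alternatives). The Total difference was −0.54 ± 0.41. TT12 shares 92 exon bases with AT3G59040 on the other strand, which holds 2449 counts against 234 for TT12, so its values are uncertain.

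AHA10 (AT1G17260, chromosome 1, 5904058 to 5908898, plus strand) encodes a proton pump that acidifies the vacuole of endothelium cells. It stood at 2.93 and 1.53 CPM in msh1 TRAP, against 3.08 and 7.40 CPM in WT TRAP, and at 2.33 and 2.29 CPM in msh1 Total, against 7.67 and 4.15 CPM in WT Total. The groups did not overlap in either fraction, though the nearest TRAP values were close. The TRAP difference was −1.26 ± 0.48 and lay just beyond the threshold (edgeR adjusted p = 0.0524), which it passed under 9 of 15 alternatives, with a range of 0.00255 to 0.577. The highest of these came without WT TRAP 2, where the difference was −0.46. In Total the difference was −1.34 ± 0.44.

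TT10 (AT5G48100, chromosome 5, 19489327 to 19492744, minus strand) encodes a laccase-like enzyme that oxidises flavonoids and browns the ripening seed coat. It stood at 1.15 and 0.824 CPM in msh1 TRAP, against 16.8 and 33.1 CPM in WT TRAP, and at 2.52 and 5.52 CPM in msh1 Total, against 37.8 and 27.9 CPM in WT Total. The 4 msh1 values lay below the lowest WT value. In TRAP it fell 25.4-fold, at −4.67 ± 0.48 on the log2 scale (edgeR adjusted p = 4.59e-05), or −4.06 with WT TRAP 2 left out. Among alternatives that dropped no replicate, the edgeR adjusted p ran from 1.95e-49 without the filter to 0.000123 with the length trend removed. The value without the filter lay far below the others and is not read as stronger support. In Total the difference was −3.00 ± 0.36, and −3.70 without msh1 Total 2.

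MUM2 (AT5G63800, chromosome 5, 25530055 to 25535889, plus strand) encodes a beta-galactosidase that trims the pectin of seed coat mucilage so that it can swell. It stood at 60.6 and 48.9 CPM in msh1 TRAP, against 94.9 and 94.6 CPM in WT TRAP, and at 71.5 and 81.4 CPM in msh1 Total, against 111 and 120 CPM in WT Total. The groups did not overlap in either fraction. In TRAP it fell 1.73-fold, by 0.79 ± 0.16 on the log2 scale (edgeR adjusted p = 0.00174), and in Total the difference was −0.60 ± 0.15.

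**Figure D3:**
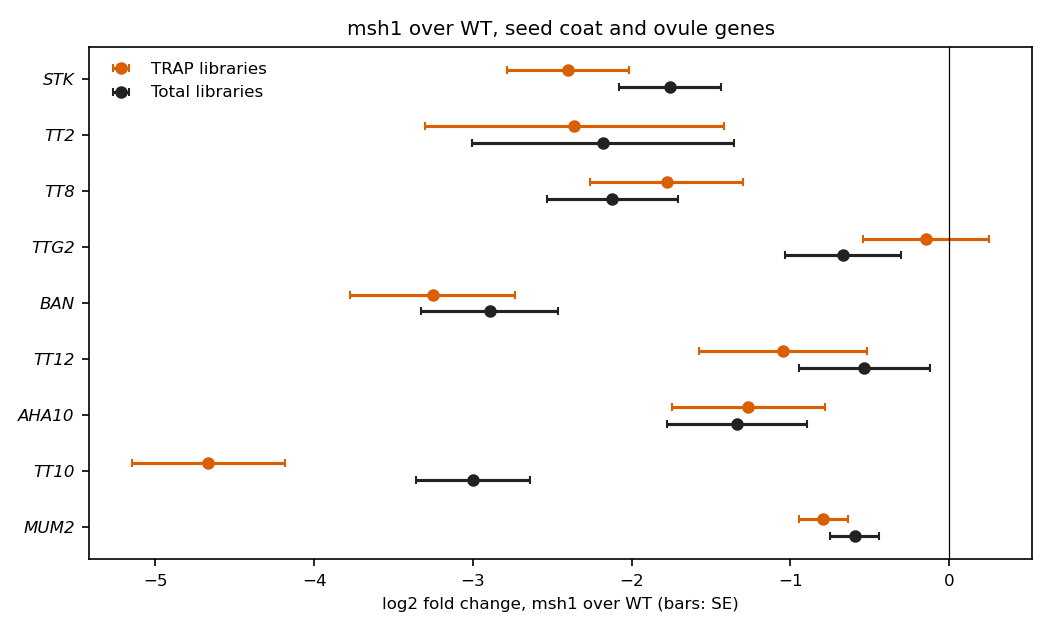
Log2 fold change of msh1 over WT on the horizontal axis for the 9 genes kept by the filter, in TRAP libraries and in Total libraries; bars are standard errors. TT10 lies farthest from 0 in TRAP, at −4.67, with −3.00 in Total beside −2.90 for BAN, and TTG2 nearest to 0 in TRAP, at −0.14.

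Set per length, as CPM per kilobase of exon, MUM2 was the most abundant member in every group, at 20.8 in msh1 TRAP, against 36.0 in WT TRAP, and at 29.0 in msh1 Total, against 43.8 in WT Total. In both WT groups BAN, TT10 and STK came next, at 13.4, 12.1 and 5.15 per kilobase in WT TRAP and 22.1, 15.9 and 7.07 per kilobase in WT Total. In each WT group the ranges of BAN and TT10 overlapped, and STK lay apart from both neighbours. From the fifth place down, each member's range in the WT groups overlapped that of the next. In msh1 TRAP the order below MUM2 was BAN at 1.43 and TTG2 at 1.33 per kilobase, which overlapped, then STK at 0.981. TT10 had a lower mean than AHA10 and TT12 there, at 0.478 per kilobase, and its range overlapped that of AHA10 but not that of TT12. In msh1 Total TT10 stood at 1.95 per kilobase. Its range there overlapped those of BAN at 2.93, STK at 2.07, TT12 at 1.55 and TTG2 at 1.06.

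The comparison of TRAP with Total sets the level of each gene in RNA of tagged ribosomes against its level in the stem as a whole. Which cells carried the tag and how far a transcript was bound by ribosomes cannot be told apart in this comparison. The log2 fold changes of TRAP over Total use the Total libraries and are given with no test. In msh1 they ran from −2.05 ± 0.57 for TT10 to 0.31 ± 0.40 for TTG2, with −1.17 ± 0.51 for TT12, −1.08 ± 0.41 for STK, −1.05 ± 0.59 for BAN and −0.48 ± 0.16 for MUM2. TT8, AHA10 and TT2 differed there by less than their standard errors, but the TT2 value rests on single libraries, with −4.53 without msh1 TRAP 1, which leaves a library with no TT2 count, and 0.95 without msh1 TRAP 2. In WT the differences ran from −0.69 ± 0.38 for BAN to 0.12 ± 0.66 for TT2, with −0.38 ± 0.31 for TT10. These values moved with single libraries. BAN stood at −0.08 without WT Total 1 and at −1.47 without WT TRAP 2. TT2 stood at 0.91 without WT Total 1. Without WT TRAP 2, TT12 stood at −1.57, against −0.65 with it, and AHA10 at −0.87, against −0.14. Both TRAP libraries lay below both Total libraries for 5 of the 9 members in msh1, where 32.5% of all genes did, and for 1 of the 9 in WT, MUM2, where 32.0% did. The median over the members was −0.48 in msh1 and −0.38 in WT, where that of all genes was −0.02 and −0.06. The difference between the genotypes in this value, the genotype by fraction difference, was −1.67 ± 0.66 for TT10 and lay between −0.64 and 0.53 for the other 8. The TT10 value in msh1 was −1.35 without msh1 Total 2.

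**Figure D4:**
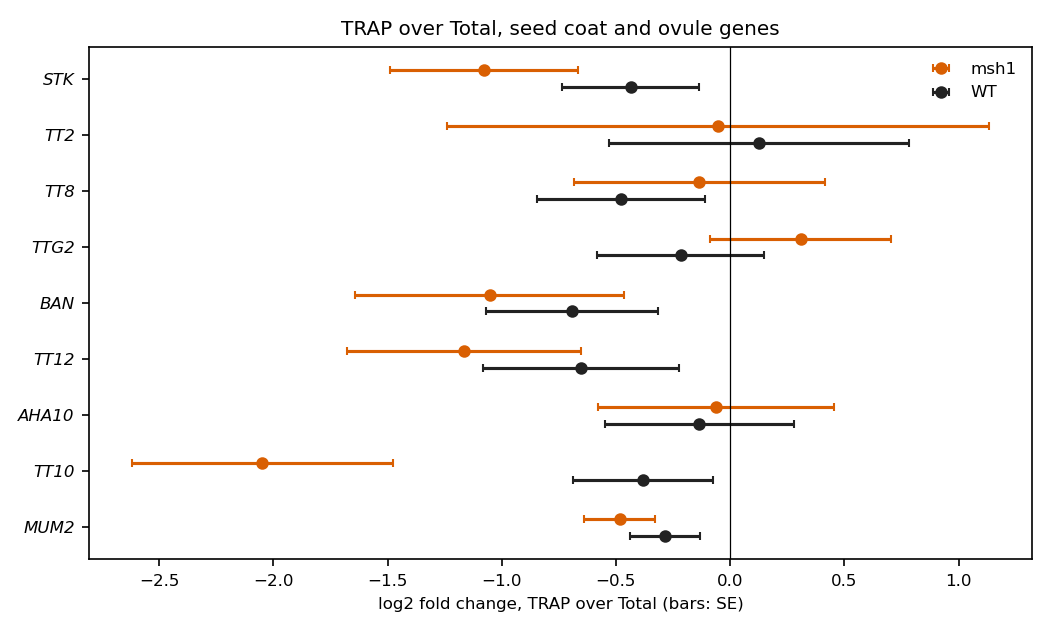
Log2 fold change of TRAP over Total on the horizontal axis for the 9 genes kept by the filter, in msh1 and in WT; bars are standard errors. TT10 in msh1 lies at −2.05, and in WT the values stay between −0.69 and 0.12.

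Genes of the embryo and of seed maturation lay lower in msh1 too, with a lower median than the seed coat and ovule genes in both fractions. Of 18 such genes, among them storage proteins, oleosins and the regulators LEC1, FUS3 and ABI3, 15 were measured. In msh1 TRAP, where 20.8% of all genes were called lower, 14 of the 15 fell and 0 rose. The median log2 fold change of the 15 was −4.35 in TRAP and −3.32 in Total, beside −1.78 and −1.76 for the 9 seed coat and ovule genes. The oleosin gene OLEO2 fell by 5.40 ± 0.51 in TRAP (edgeR adjusted p = 3.64e-05), and the storage globulin genes CRU3 and CRA1 stood at −5.35 ± 0.49 each (edgeR adjusted p = 3.4e-05 for both). Reads of such families of similar storage protein genes are uncertain between their members. LEC2 and EM1 did not pass the filter and had no count in any msh1 library, but their WT counts were also very low. LEC2 had 1 and 1 counts in WT TRAP and 3 and 4 counts in WT Total. EM1 had 1 and 0 counts in WT TRAP and 1 and 1 counts in WT Total, so nothing is read from these genes. In Total the largest differences were those of CRU3 at −3.66 ± 0.43, the albumin gene SESA3 at −3.60 ± 0.41 and the oleosin gene OLEO1 at −3.53 ± 0.42. TT10, at −4.67 in TRAP, was the one member beyond the embryo median. The difference between the lists was not tested, and the choice of both rests on earlier results of these data.

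Summed over the 9 members without MUM2, whose level would outweigh the others, the seed coat and ovule genes stood at 14.5 and 10.6 CPM in msh1 TRAP, against 48.4 and 95.9 CPM in WT TRAP. The same sum was 19.2 and 24.8 CPM in msh1 Total, against 126 and 75.3 CPM in WT Total. The 18 embryo genes summed to 62.3 and 44.6 CPM in msh1 TRAP, against 955 and 2067 CPM in WT TRAP, and to 119 and 301 CPM in msh1 Total, against 2572 and 2144 CPM in WT Total. The seed coat sum was thus 23.3 and 23.7% of the embryo sum in msh1 TRAP, against 5.06 and 4.64% in WT TRAP, and 16.2 and 8.27% in msh1 Total, against 4.89 and 3.51% in WT Total. All 4 msh1 libraries had a higher share than all 4 WT libraries. The genes in the sum changed unequally, so the share depends on which are summed. Mean levels in msh1 TRAP and WT TRAP were 2.58 and 2.87 CPM for TTG2 and 2.23 and 5.24 CPM for AHA10. BAN had 2.04 and 19.2 CPM, and TT10 had 0.985 and 25.0 CPM. The share was not computed for other sets of members. The part of embryo content in the differences of the seed coat genes was not tested.

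**Figure D5:**
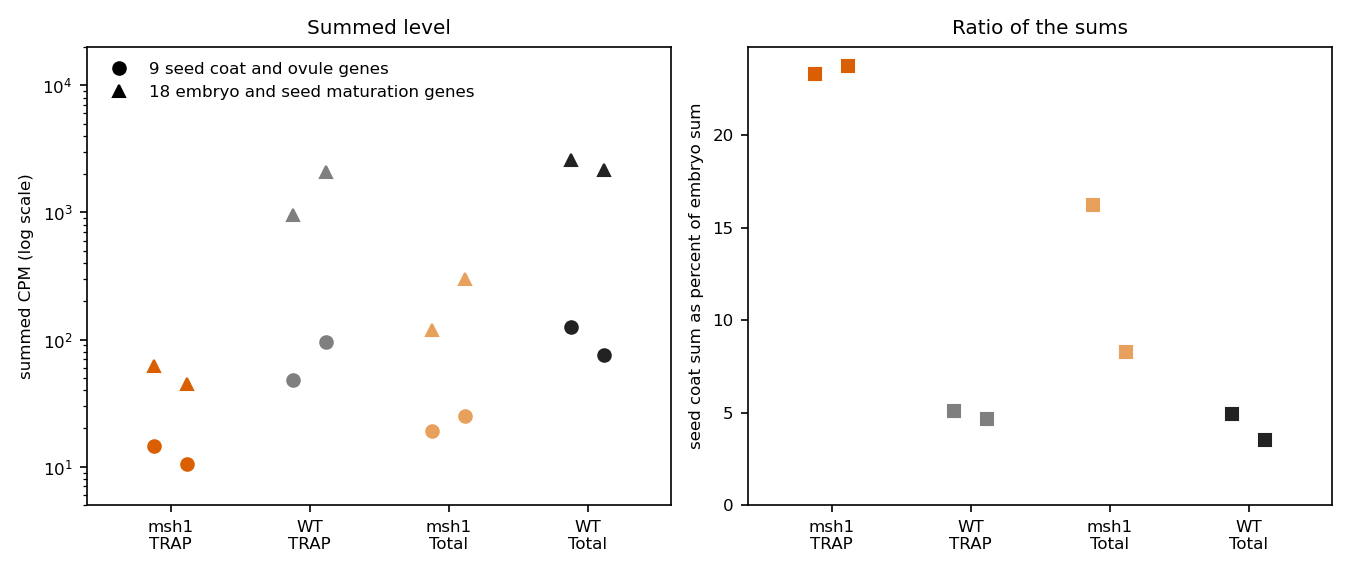
Left, summed CPM on a log scale of the 9 seed coat and ovule genes without MUM2 and of the 18 embryo and seed maturation genes in each library; right, the first sum as a percent of the second, with 2 points per group. The share lies at 23.3 and 23.7% in msh1 TRAP and between 3.51 and 5.06% in the WT libraries.

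Of 9 endosperm genes, 6 were measured. In msh1 TRAP, where 20.8% of all genes were called lower and 20.8% higher, 2 of the 6 fell and 1 rose, and nothing is read from these counts. The median log2 fold change of the 6 was −1.84 in TRAP and −2.06 in Total. For the 9 seed coat and ovule genes it was −1.78 and −1.76. Of the 6 values, 4 were negative in TRAP and 6 in Total. The sucrose transporter gene SUC5 fell by 3.99 ± 0.68 (edgeR adjusted p = 0.000654) and differed by −2.25 ± 0.45 in Total. IKU2, a receptor kinase gene of endosperm growth, rose by 0.75 ± 0.15 in TRAP (edgeR adjusted p = 0.00196) and differed by −0.69 ± 0.15 in Total, but it shares 307 exon bases with AT3G19710 on the other strand, which holds 34621 counts against 7419, so its direction is uncertain. The endosperm sums were 133 and 146 CPM in msh1 TRAP, against 84.3 and 100 CPM in WT TRAP. In Total they were 53.9 and 65.1 CPM in msh1, against 103 and 109 CPM in WT. IKU2 made up most of them, with 131 and 143 CPM in msh1 TRAP, against 78.0 and 85.0 CPM in WT TRAP. The sums therefore follow IKU2, and nothing is read from them about the other endosperm genes.

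Another 10 genes of flavonoid enzymes and transport were all measured. Some act before BAN and some, such as the flavonol synthase gene FLS1, on other branches. In msh1 TRAP, where 20.8% of all genes were called lower, 5 of the 10 fell and 0 rose. The median log2 fold change of the 10 was −0.83 in TRAP and −0.76 in Total. TT7, the flavonoid 3′-hydroxylase gene, fell by 2.84 ± 0.43 (edgeR adjusted p = 0.000311), DFR, the dihydroflavonol reductase gene, by 2.28 ± 0.44 (edgeR adjusted p = 0.00158) and F3H, the flavanone hydroxylase gene, by 1.31 ± 0.23 (edgeR adjusted p = 0.000886). F3H is uncertain, since AT3G51238 on the other strand covers 1415 of its exon bases. In Total the largest differences were those of DFR at −2.14 ± 0.39, the anthocyanidin synthase gene LDOX at −1.75 ± 0.36 and TT7 at −1.45 ± 0.35.

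Of 10 further regulators of flavonoids and the seed coat, 9 were measured, with a median of 0.10 in TRAP and −0.50 in Total. In msh1 TRAP 2 of the 9 fell and 0 rose, close to the 20.8% of all genes called lower, so nothing is read from this count. The 2 that fell were EGL3, a bHLH relative of TT8, at −1.32 ± 0.28 (edgeR adjusted p = 0.00274), and GL2, a homeobox gene of epidermal cell fate and mucilage, at −2.60 ± 0.25 (edgeR adjusted p = 3.64e-05). GL2 is uncertain, because it shares 198 exon bases with AT1G79850, which holds 20772 counts against 1062. GL2 also shares 155 exon bases with AT1G09927 on the same strand, which holds 15028 counts. In Total, MYB5 differed by −2.71 ± 0.58, GL2 by −1.14 ± 0.22 and EGL3 by −0.67 ± 0.25, and MYB5 too is uncertain, because 1337 of its exon bases lie in AT3G13530 on the other strand. TT1, a zinc finger regulator, did not pass the filter.

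Of 15 mucilage genes, all measured, 12 fell in msh1 TRAP and 0 rose, where 20.8% of all genes were called lower. The median of the 15 was −0.82 in TRAP and −0.51 in Total. The peroxidase gene AT3G50990, known as PER36, which acts in mucilage release, fell by 2.60 ± 0.58 (edgeR adjusted p = 0.00362), COBL2, a COBRA-like gene of mucilage cellulose, by 1.27 ± 0.27 (edgeR adjusted p = 0.0029) and ARA12, the subtilase gene SBT1.7, by 1.19 ± 0.23 (edgeR adjusted p = 0.00136). In Total these were led by AT3G50990 at −2.49 ± 0.38, COBL2 at −1.38 ± 0.25 and the pectin methylesterase inhibitor gene AT2G47670 at −1.13 ± 0.35. The value of MUM2, −0.79 in TRAP, lay close to the median of this list.

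Of 12 ovule and carpel genes beside STK and TT16, 8 were measured, with a median of −0.54 in TRAP and −0.68 in Total. In msh1 TRAP, where 20.8% of all genes were called lower, 4 of the 8 fell and 0 rose. SHP2, a MADS-box gene of the fruit that acts with STK in ovules, fell by 1.61 ± 0.41 (edgeR adjusted p = 0.0077) and differed by −2.06 ± 0.35 in Total, and it shares 727 exon bases with AT2G42835 on the other strand, so its value is uncertain. AG, the carpel and stamen identity gene, fell by 1.08 ± 0.26 (edgeR adjusted p = 0.0056) and BEL1, an integument gene, by 0.63 ± 0.17 (edgeR adjusted p = 0.00877). In Total AG differed by −1.03 ± 0.25 and SEP3, a co-factor of floral MADS-box proteins, by −0.79 ± 0.19.

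Markers of other tissues were counted in the same way, beside the 20.8% of all genes called lower in msh1 TRAP. Of 11 stamen and pollen genes 9 were measured, 6 fell in msh1 TRAP and 0 rose, with sums of 100 and 78.7 CPM in msh1 TRAP, against 266 and 264 CPM in WT TRAP, and of 104 and 118 CPM in msh1 Total, against 172 and 157 CPM in WT Total. The pollen genes VGD1 and VGDH1, near-identical neighbours between which reads are uncertain, fell by 2.28 ± 0.26 (edgeR adjusted p = 6.81e-05) and 2.41 ± 0.35 (edgeR adjusted p = 0.000256), and AT2G26490 by 2.69 ± 0.57 (edgeR adjusted p = 0.0026). In Total AT2G26490 differed by −1.23 ± 0.50, VGDH1 by −0.86 ± 0.34 and PPME1 by −0.77 ± 0.25. Of 4 silique genes 1 fell, ALC at −0.97 ± 0.22 (edgeR adjusted p = 0.00339), which AT5G67100 overlaps over 870 exon bases. In Total IND differed by −1.63 ± 0.56, ALC by −1 ± 0.20 and RPL by −0.20 ± 0.16. Of 10 stem genes 6 fell and 0 rose, among them CESA4 at −1.83 ± 0.20 (edgeR adjusted p = 5.48e-05), SUC2 at −1.43 ± 0.22 (edgeR adjusted p = 0.000405) and the cellulose synthase gene IRX3 at −1.41 ± 0.17 (edgeR adjusted p = 7.85e-05). In Total CESA4 differed by −0.73 ± 0.19, IRX1 by −0.63 ± 0.17 and IRX3 by −0.59 ± 0.16. The median log2 fold change of the stamen and pollen genes was −1.509 in TRAP and −0.685 in Total. For the silique genes it was −0.621 and −0.602, and for the stem genes −0.634 and −0.277. The part of fruit, flower or stem composition in the differences of the 10 genes was not tested.

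Among 20346 other genes with a mean of at least 1 CPM, the 5 whose log2 CPM followed the members' mean standardised profile most closely over the 8 libraries had Pearson's r of 0.99 each, given as a description. The libraries share their genotype and fraction contrasts, so the values are not independent. They were AT3G03955, IAMT1, an IAA methyltransferase gene, AT2G41890, a lectin-like gene, AT2G32750, an exostosin family gene, and AT4G11810, an SPX domain transporter gene. AT3G03955 stood at 1.40 and 0.706 CPM in msh1 TRAP, against 9.62 and 22.2 CPM in WT TRAP, and at 2.61 and 3.79 CPM in msh1 Total, against 39.8 and 18.3 CPM in WT Total. This non-coding locus lies within DELTA-VPE, on the other strand, so its reads are uncertain between them. DELTA-VPE, named here after its values were seen and known as a protease gene of the inner seed coat, stood at 6.88 and 3.89 CPM in msh1 TRAP, against 59.4 and 159 CPM in WT TRAP, and at 18.2 and 31.9 CPM in msh1 Total, against 225 and 118 CPM in WT Total. Among the members, BAN followed the mean profile most closely, with r of 0.995, and TTG2 least, with 0.641, in a profile to which each contributes.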

How the data were processed

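mRNA of floral stems was sequenced in 8 libraries. Per the labels' protocols, the TruSeq RNA v2 preparation was used, which does not mark strand. The authors deposited raw read counts per locus, 1 table per library, with no normalization. The submitters' processing notes name TAIR10 and DESeq2; the aligner and counter are not stated there. Lines that name no gene were left out of all sums: those outside genes were 38.5 to 41.7% of listed counts, and those without a unique alignment 12.4 to 18.9%. Of 32833 loci, 32548 matched the TAIR10.1 annotation (RefSeq), whose coordinates are used for the nuclear genes.

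The test was that of edgeR 4.0.16, R 4.3.3 (filterByExpr, TMM, quasi-likelihood F test, 4 groups in 1 fit, 4 residual degrees of freedom, Benjamini-Hochberg adjustment, threshold 0.05). The SE is the log2 fold change divided by the root of F. CPM are TMM-normalised. DESeq2 1.42.0 served as an alternative. The code was tested on simulated data. Lengths are merged exons.

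The members and lists were chosen with earlier results of these data known. Named genes were the 10 members, up to 3 per list with the largest absolute log2 fold change at a mean of at least 1 CPM (called ones in TRAP), and the 5 most alike genes; exceptions are named as such. Proteins named in that rule are not shown, since no protein table was used here.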

Additional observations from a re-analysis of the deposited data

How the results depend on the processing

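Alternatives were RLE or upper-quartile factors, no filter, DESeq2, a fit of the 4 libraries compared, the replicate number as a block, a trend on transcript length removed, and each library left out. Without the filter 8 members were lower in msh1 TRAP, against 5, with TT16 (edgeR adjusted p = 0.0101), TT2 and AHA10 added. That setting called 9490 genes in either direction, against 8818, with more genes tested. The TT16 call rests on 1 count over both msh1 TRAP libraries, so nothing is read from it. Leaving out libraries gave 4 (without WT TRAP 2) to 7 members and 5850 (without WT TRAP 2) to 9509 genes called, against 8818. The members' median was then −1.99 to −1.40 in msh1 TRAP over WT TRAP, −2.09 to −1.35 in msh1 Total over WT Total, −0.99 (without msh1 TRAP 1) to −0.35 in msh1 TRAP over msh1 Total and −0.87 to −0.04 in WT TRAP over WT Total. TTG2 in TRAP ran from −0.295 (without WT TRAP 2) to 0.024, a change of sign (without WT TRAP 1). STK, BAN, TT10 and MUM2 kept their calls under all 15 alternatives, TT8 under 14. The causes were not tested. The labels do not say whether same-numbered libraries are paired: the correlations of their deviations lay between −0.24 and 0.08, and with the replicate block 5 members and 8285 genes were called. With 2 libraries a group, members at a few counts, TT2 and TT16, can show only large differences.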
